A study of Mus musculus with 12 samples.

Results

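The astrocyte identity genes are 38 genes that mark astrocytes or are much enriched in them, and they were followed by their symbols through the count table of mouse striatum. All 38 were among the 57132 features of the table, all 38 are protein coding, and all 38 were among the 13902 features that passed the filter on low counts. That filter kept a feature when 3 or more libraries reached 0.5 CPM, counts scaled to the size of the library (the usual CPM unit). The study compared the striatum of mice without trace amine-associated receptor 5 (TAAR5), labelled TAAR5-KO, with that of wild-type littermates, labelled TAAR5-WT. All mice were 10 months old, on the C57Bl/6 background and kept in the same housing, with no treatment named. The knockout is present in every cell of the body, so no cell type is singled out by the genotype. Each group has 6 libraries, with the label TAAR5-KO on NK1 to NK6 and TAAR5-WT on NK7 to NK12. By the study's account each group held 3 male and 3 female mice. The labels and column names give neither the animal number nor the sex behind a library. Sex was not read from the counts of sex-linked genes, and the fits hold no term for sex. Tissue was the part of a coronal slice that remained after the cortex was cut away, so it holds every cell type of the striatum and whatever borders it.

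Astrocytes are the glial cells that take up glutamate and potassium around synapses, supply neurons with metabolites and touch blood vessels with their endfeet. They are recognised by an intermediate filament protein, a set of enzymes of lipid, folate and retinoid metabolism, surface receptors, and secreted proteins that shape synapses and the matrix. In the striatum they surround the spiny projection neurons and respond to dopamine and GABA.

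Libraries held 11269915 to 34824450 counts in total, and ribosomal RNA took 64.3 to 88.1% of them, leaving 1819907 to 6399188 counts for all other genes. The ribosomal RNA share was 73.8 to 88.1% with the TAAR5-KO label and 64.3 to 87.4% with the TAAR5-WT label. Taar5 itself had 1 to 6 counts in the libraries labelled TAAR5-KO and 0 to 2 in those labelled TAAR5-WT, which goes against the labels at counts too low to decide the genotype, so groups are named below by their labels. Across the 30 pairs of libraries within a group, the chi-square per degree of freedom of the counts was 6.93 to 350, so no such pair was the same library sequenced again. Separate libraries from the same animal could not be recognised in this way, and pairs across the groups were not examined. The 38 genes had between 2 counts (Paqr6) and 10351 counts (Sparcl1) in a library, and a count of 3 corresponds to 0.0678 to 0.361 CPM.

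The defining astrocyte markers were present in every library. Per kilobase of exon, Sparcl1 was highest of the 38 at 73.2 CPM per kb, followed by Cst3 at 56.8 and Ndrg2 at 39.2, and the lowest were Phkg1 at 0.185 and Paqr6 at 0.165. The median level of the 38 was 2.41 CPM per kb, against 0.558 CPM per kb over all features tested.

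The promoter sequences of 3 of the genes that changed are printed because these are the ones whose groups of libraries did not overlap and that have an entry in the RefSeq promoter table (build GRCm38.p6, 250 bases ending at the base before the start). They run 5′ to 3′ on the strand of the gene. Capitals mark matches, on either strand, to 5 motifs of factors known in astrocytes or of the basal promoter: the core NFI motif TTGGC, the palindromic NFI motif (the core, 5 free bases and the reverse complement of the core, so that it always holds the core motif), the SOX core AACAAT, the STAT motif TTCNNNGAA and the TATA box TATAAA.
Myoc chr1:162638900-162639149 (+): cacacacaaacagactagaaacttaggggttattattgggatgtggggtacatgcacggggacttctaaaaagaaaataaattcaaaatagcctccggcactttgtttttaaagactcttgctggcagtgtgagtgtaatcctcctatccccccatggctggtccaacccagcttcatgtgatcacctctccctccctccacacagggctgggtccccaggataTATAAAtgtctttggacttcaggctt
Acsbg1 chr9:54661886-54662135 (−): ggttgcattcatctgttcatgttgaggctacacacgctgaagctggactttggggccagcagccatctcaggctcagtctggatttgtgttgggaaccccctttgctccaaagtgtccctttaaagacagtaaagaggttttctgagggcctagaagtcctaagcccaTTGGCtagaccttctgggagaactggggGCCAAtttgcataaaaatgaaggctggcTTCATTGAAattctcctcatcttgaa
S100b chr10:76253586-76253835 (+): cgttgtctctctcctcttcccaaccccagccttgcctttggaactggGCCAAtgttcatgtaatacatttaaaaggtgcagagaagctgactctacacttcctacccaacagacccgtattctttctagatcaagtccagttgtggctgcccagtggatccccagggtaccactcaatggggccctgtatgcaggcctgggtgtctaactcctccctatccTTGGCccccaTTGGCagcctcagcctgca
The Myoc window held a TATA box whose first base lies 26 bases before the start. The Acsbg1 window held the core NFI motif at 82 and 54 bases and a STAT motif at 26 bases before the start. In the S100b window the core NFI motif stood at 203, 29 and 19 bases before the start.

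Of the 38 genes, 34 have an entry, with 39 promoters in all, and Clu, Sox9, Chrdl1 and Sparcl1 have none in the table. The core NFI motif was in 19 of these 39 promoters (48.7%) against 41.5% of all 32851, and the TATA box was in 5 (12.8%) against 12.4%. STAT motifs were in 5 promoters (12.8%), those of Acsbg1, Agt, Ntsr2, Pla2g7 and Slc7a11, against 7.02% of all. The palindromic NFI motif was in 0 of the 39 and in 0.0365% of all, and the SOX core was in 0 of the 39 and in 9.42% of all. These are matches of letters in a short window and no measure of binding.

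Most of the 38 genes were lower in the libraries labelled TAAR5-KO, and 6 passed the test, each of them lower: the secreted glycoprotein gene Myoc, the fatty acid enzyme gene Acsbg1, the retinaldehyde dehydrogenase gene Aldh1a1, the synapse-organising Sparcl1, the calcium-binding S100b and the phagocytic bridging protein gene Mfge8. The test was the likelihood ratio test of edgeR over all features at a Benjamini-Hochberg adjusted p under 0.1. These 6 are 15.8% of the genes, where 0.691% of all features tested were called lower, 0.957% higher and 1.65% in either direction. The stricter quasi-likelihood test of edgeR called 2 of the 38 (5.26%), Myoc and Acsbg1, against 0.453% of all features (0.144% lower). DESeq2 called 7 lower, Sparcl1, Mfge8, Acsbg1, S100b, Aldh1a1, Ndrg2 and Clu, against 0.539% of all features called lower and 1.27% in either direction. It gave no adjusted p to 7009 of the 13902 features, nor to 7 of the 38 genes. Such features could not be called but stay in both shares, so the shares among features that could be called are larger. Bulk RNA cannot tell fewer astrocytes from less of these RNAs per astrocyte.

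By sign alone, 34 of the 38 (89.5%) had a log2 fold change (TAAR5-KO over TAAR5-WT) under 0, against 51.1% of all features, and the 4 above 0 were Id4, Chrdl1, Phkg1 and Slc7a10, of which none passed the test. For Phkg1 the fitted value of 0.01 (SE 0.23) and the mean CPM, slightly lower with the TAAR5-KO label, differ in sign. With library size as the only scaling, under which the median of all features itself moved to −0.49, all 38 were under 0 and 34 were under that median. The median log2 fold change of the 38 was −0.25, a level 15.6% lower, against −0.01 over all features, and the single values ran from −1.17 to 0.20 with a median SE of 0.13. An unadjusted p under 0.05 went with a lower level for 20 genes (52.6%, against 5.51% of all features) and with a higher level for 0 (against 6.39%). Groups of libraries did not overlap for 4 genes, Myoc, Acsbg1, S100b and Sparcl1, all lower (10.5%, against 0.388% of all features), and for 0 genes higher (against 0.626%).

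**Figure D1:**
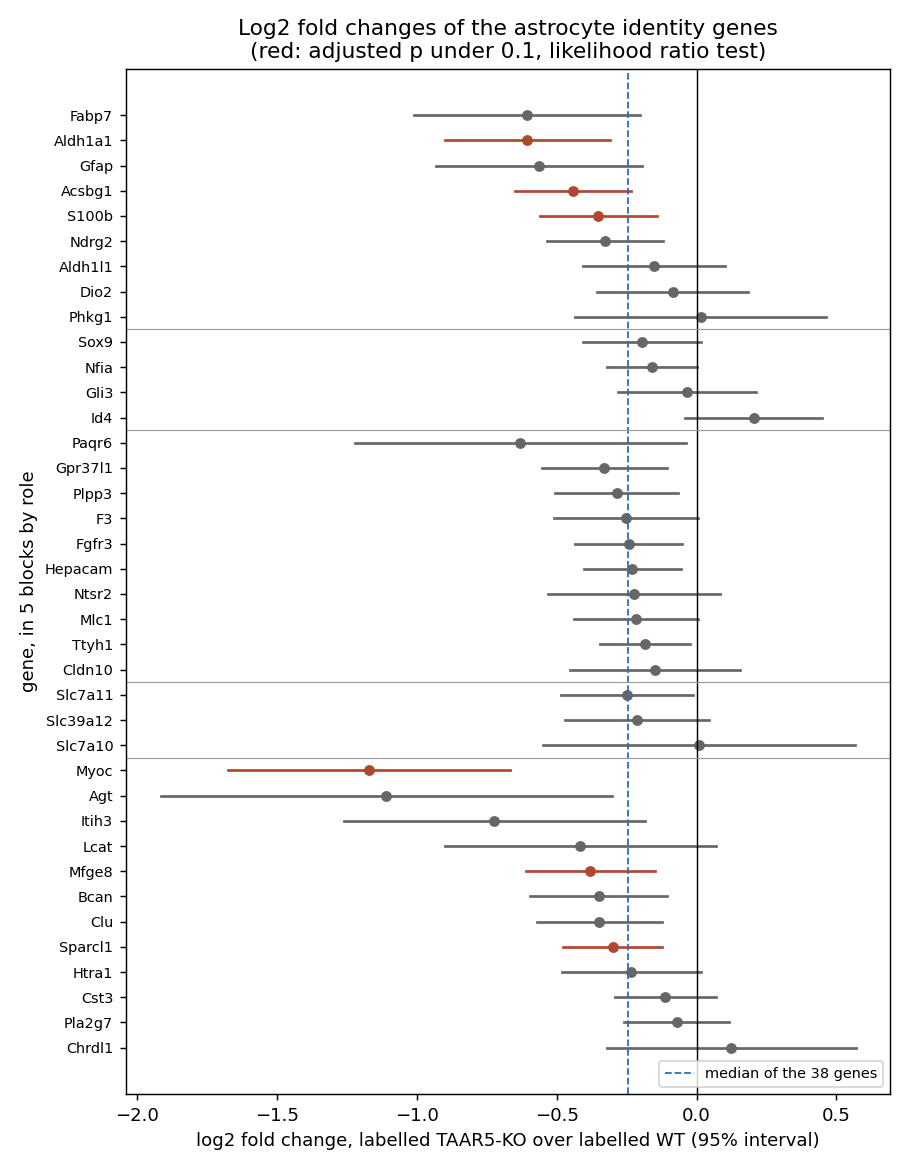
Log2 fold change of each of the 38 genes (TAAR5-KO over TAAR5-WT, points) with its 95% confidence interval (bars), grouped by role. Points of 34 genes lie left of 0, from −1.17 for Myoc, and 4 lie right of it, up to 0.20 for Id4.

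Among the cytoskeletal, calcium-binding and cytosolic enzyme genes, 8 of 9 were on the lower side, 3 were called lower (Acsbg1, Aldh1a1, S100b), 6 did not pass, and the median log2 fold change was −0.35. Acsbg1 (chromosome 9, 54512161 to 54569154 of GRCm39, like all gene positions here) encodes an acyl-CoA synthetase that activates very long-chain fatty acids. With the TAAR5-KO label its lowest, median and highest values were 6.97, 10.3 and 11.6 CPM, and with the TAAR5-WT label they were 12.6, 13.2 and 14.1 CPM. The groups did not overlap, with NK3 lowest of all and NK10 highest. Its level was 26.4% lower (log2 fold change −0.44, SE 0.11, edgeR adjusted p = 0.00915 by the likelihood ratio test and 0.0870 by the quasi-likelihood test). Removing each library's trend on GC content ended the call, with a log2 fold change of −0.35 and an adjusted p of 0.123, in a fit that called 0.705% of all features against 1.65%.

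Aldh1a1 (chromosome 19, 20470079 to 20620829) makes retinoic acid from retinaldehyde, and dopamine neurons and vessels also use it. Values ran from 3.67 CPM through a median of 5.26 to 7.51 in the libraries labelled TAAR5-KO, and from 7.39 through 8.54 to 10.5 in those labelled TAAR5-WT. Only NK5 among the former reached the range of the latter, whose lowest library was NK12. The log2 fold change was −0.61 (SE 0.15, edgeR adjusted p = 0.0144), and the quasi-likelihood test gave an adjusted p of 0.113.

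S100b (chromosome 10, 76089687 to 76096993), a calcium-binding protein gene used to label mature astrocytes, had 8.51, 12.5 and 13.8 CPM in the libraries labelled TAAR5-KO. In those labelled TAAR5-WT it had 13.9, 15.0 and 16.5 CPM. The gap between NK4, the highest of the first group, and NK8, the lowest of the second, was small, yet no library crossed it. S100b was 21.6% lower (log2 fold change −0.35, SE 0.11, edgeR adjusted p = 0.0771, quasi-likelihood 0.175), and leaving out NK1, NK2, NK6, NK7, NK10, NK11 or NK12 ended the call, with log2 fold changes of −0.37 to −0.27 and adjusted p-values of 0.103 to 0.245.

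Gfap, the gene of the astrocyte intermediate filament (chromosome 11, 102778162 to 102791738), spread widely with the TAAR5-KO label (coefficient of variation 35.4%, against 15.3% with the other). It was at 8.27, 16.4 and 22.7 CPM in the libraries labelled TAAR5-KO and at 19.1, 24.5 and 28.4 CPM in those labelled TAAR5-WT. NK1, NK2, NK3 and NK6 lay under every library labelled TAAR5-WT, while NK4 and NK5 lay inside their range. The log2 fold change of −0.56 (SE 0.19) did not pass (edgeR adjusted p = 0.128). Without NK4 it was −0.68 (adjusted p = 0.0300) and without NK5 it was −0.67 (adjusted p = 0.0423), so the side of the threshold rests on either of these libraries.

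Ndrg2, a gene of astrocyte cytoplasm and processes, was behind Sparcl1 and Cst3 in level per kilobase of exon, with 104, 111 and 139 CPM in the libraries labelled TAAR5-KO. Those labelled TAAR5-WT had 137, 146 and 162 CPM, and NK4 and NK5 again were the libraries that overlapped them. The log2 fold change was −0.33 (SE 0.11, edgeR adjusted p = 0.110), and it passed without NK4 (adjusted p = 0.0340), without NK5 (0.0419) and in DESeq2 (0.0322). Aldh1l1, a folate enzyme gene and the basis of widely used astrocyte reporter mice, had 2.84, 3.37 and 3.86 CPM against 3.01, 3.56 and 4.57 CPM. Its groups overlapped through most of their range, and the log2 fold change of −0.15 (SE 0.13, edgeR adjusted p = 0.692) was near the size of its error, with a 95% interval of −0.40 to 0.10. The other enzyme and binding protein genes did not pass either. Fabp7, a fatty acid-binding protein gene of radial glia and astrocytes, was at 1.53 ± 0.409 CPM (SD, n = 6) against 2.30 ± 0.488 (log2 fold change −0.61, SE 0.21). Dio2, which makes active thyroid hormone, was at 15.9 ± 3.42 against 16.8 ± 2.53 CPM, and Phkg1, the catalytic subunit of phosphorylase kinase in glycogen breakdown, was at 1.18 ± 0.437 against 1.23 ± 0.242 CPM.

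**Figure D2:**
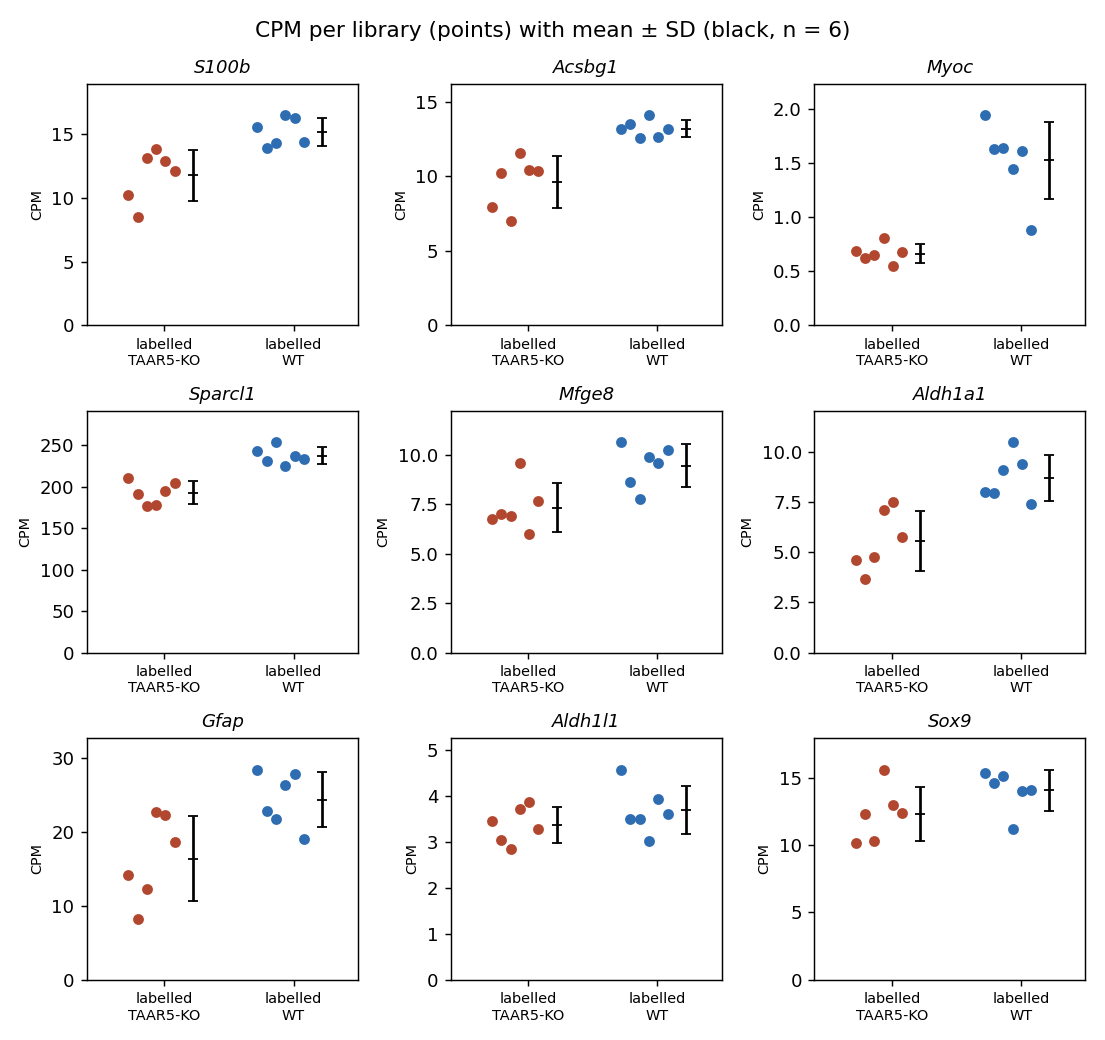
CPM in every library for the 6 genes called and for Gfap, Aldh1l1 and Sox9, with a coloured point per library and the mean and SD of each group of 6 in black. For Acsbg1, Myoc, S100b and Sparcl1 the points labelled TAAR5-KO all lie under those labelled TAAR5-WT, while for Gfap NK4 and NK5 reach into the other group.

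The 4 transcription factor genes showed the smallest differences of the roles, with 3 on the lower side, 0 called and a median log2 fold change of −0.10. Sox9, a factor that starts and keeps glial identity, had 10.2, 12.4 and 15.6 CPM in the libraries labelled TAAR5-KO and 11.2, 14.3 and 15.4 CPM in those labelled TAAR5-WT. NK4 was the highest of all 12 libraries and NK10 the lowest of its group, so the ranges overlapped almost fully (log2 fold change −0.20, SE 0.11, edgeR adjusted p = 0.467). Nfia, which acts with Sox9 in the start of astrocyte formation, was at 25.1 ± 1.54 against 28.0 ± 2.09 CPM. Gli3, a Hedgehog pathway factor, was at 5.03 ± 0.669 against 5.13 ± 0.685 CPM. Id4, an inhibitor of helix-loop-helix factors, was the gene farthest on the higher side, at 38.1 ± 5.23 against 33.2 ± 6.23 CPM (log2 fold change 0.20, SE 0.13, edgeR adjusted p = 0.542).

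All 10 receptor and membrane protein genes were on the lower side, yet 0 passed the test, and their median log2 fold change was −0.24. Fgfr3, a fibroblast growth factor receptor of astrocytes, had 5.97, 7.42 and 7.93 CPM in the libraries labelled TAAR5-KO and 7.63, 8.69 and 9.19 CPM in those labelled TAAR5-WT. NK7 was the only library of the second group inside the range of the first (log2 fold change −0.24, SE 0.098, edgeR adjusted p = 0.257). The orphan receptor gene Gpr37l1 was at 7.62 ± 1.05 against 9.55 ± 1.26 CPM (log2 fold change −0.33, SE 0.11), and the neurotensin receptor gene Ntsr2 at 8.35 ± 2.36 against 9.77 ± 1.49 CPM. Paqr6, of the progestin receptor family, had the largest fold change of this role (−0.63, SE 0.30) at the lowest level of the 38, with 2 to 20 counts in a library.

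Mlc1 and Hepacam, whose proteins form a complex at astrocyte junctions and endfeet, were at 8.72 ± 1.27 against 10.1 ± 1.14 CPM and at 13.3 ± 1.29 against 15.7 ± 0.903 CPM. For Hepacam only NK5 among the libraries labelled TAAR5-KO reached the other group. The lipid phosphatase gene Plpp3 was at 23.6 ± 3.02 against 28.6 ± 4.18 CPM, and Ttyh1, of the tweety family, at 45.5 ± 2.40 against 51.6 ± 3.62 CPM. The claudin gene Cldn10 was at 3.28 ± 0.706 against 3.62 ± 0.692 CPM. F3, tissue factor of blood clotting, was at 4.23 ± 0.651 against 5.14 ± 0.584 CPM, with NK6 the only library of its group above the lowest labelled TAAR5-WT.

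The 3 transporter genes had a median log2 fold change of −0.21 and 0 calls. Slc7a11, the cystine and glutamate exchanger, was at 13.0 ± 1.76 against 15.2 ± 2.78 CPM, and the zinc transporter gene Slc39a12 at 6.18 ± 1.34 against 7.26 ± 0.698 CPM. Slc7a10, a carrier of glycine and D-serine, stood at 1.41 ± 0.721 against 1.40 ± 0.447 CPM, and its highest library, NK4 at 2.54 CPM, and its lowest, NK3 at 0.486, carried the same label.

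Secreted and matrix protein genes were lower for 11 of 12, with 3 called lower (Myoc, Sparcl1, Mfge8), 9 not passing and a median log2 fold change of −0.35. Myoc, myocilin (chromosome 1, 162466724 to 162477262), had the largest difference of the 38. It was at 0.545, 0.663 and 0.805 CPM in the libraries labelled TAAR5-KO and at 0.881, 1.62 and 1.94 CPM in those labelled TAAR5-WT, on 8 to 54 counts in a library. The groups did not overlap, and NK12 stood apart as the lowest of its group, with 1.45 CPM in the next one. Myoc was 55.6% lower (log2 fold change −1.17, SE 0.26, edgeR adjusted p = 0.00219, quasi-likelihood 0.0351). DESeq2 left its adjusted p missing.

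Sparcl1, or hevin, an astrocyte protein that promotes excitatory synapses (chromosome 5, 104226977 to 104261599), was the most abundant of the 38. It had 177, 193 and 211 CPM against 225, 235 and 253 CPM, with a clear gap between NK1 and NK10. The difference was modest (18.8% lower, log2 fold change −0.30, SE 0.090). The spread was small, with a coefficient of variation of 7.08% with the TAAR5-KO label and 4.19% with the other. The adjusted p was 0.0742 by the likelihood ratio test of edgeR, 0.170 by its quasi-likelihood test and 0.000429 in DESeq2. The call by the likelihood ratio test held in 3 of the 12 fits that each left out a library, those without NK1, NK4 or NK6. In the other 9 the log2 fold changes were −0.31 to −0.27 and the adjusted p-values 0.103 to 0.233. Mfge8, lactadherin, which links dying cells to phagocytes (chromosome 7, 78783516 to 78798808), had 6.00, 6.96 and 9.60 CPM against 7.77, 9.74 and 10.6 CPM. NK4 was the only library labelled TAAR5-KO inside the other range (log2 fold change −0.38, SE 0.12, edgeR adjusted p = 0.0873, quasi-likelihood 0.176). Its call held without NK4, NK8 or NK9, and in the other 9 fits the log2 fold change was −0.39 to −0.32 and the adjusted p 0.124 to 0.247.

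Clu, the chaperone clusterin, had 67.4, 78.6 and 107 CPM in the libraries labelled TAAR5-KO and 97.5, 104 and 111 CPM in those labelled TAAR5-WT. NK4 alone of the first group reached the second, and the call by the likelihood ratio test depended on it: the log2 fold change was −0.35 (SE 0.11, edgeR adjusted p = 0.115) with it and −0.44 (adjusted p = 0.00381) without it. DESeq2 called Clu with NK4 included (adjusted p = 0.0514). Cst3, the protease inhibitor cystatin C, was second in level per kilobase of exon and had 58.6, 70.8 and 74.0 CPM against 65.0, 76.3 and 79.5 CPM. Its ranges overlapped widely (log2 fold change −0.11, SE 0.093, edgeR adjusted p = 0.687).

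The next 4 genes of secreted proteins are linked to the matrix or its turnover or to lipids. Bcan, brevican of the perineuronal matrix, was at 8.52 ± 1.69 against 10.8 ± 1.39 CPM, and the serine protease gene Htra1 ran from 7.27 to 10.5 CPM against 7.33 to 12.7 CPM (log2 fold change −0.23, SE 0.13). The phospholipase gene Pla2g7 was at 12.9 ± 1.19 against 13.4 ± 1.57 CPM, and the cholesterol-esterifying Lcat at 1.28 ± 0.446 against 1.75 ± 0.615 CPM. Chrdl1, a BMP antagonist that promotes synapse maturation, was at 1.86 ± 0.641 against 1.68 ± 0.318 CPM and did not pass.

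Agt, angiotensinogen, and Itih3, a hyaluronan-binding heavy chain, varied most among the libraries labelled TAAR5-KO. Agt was at 0.567 to 1.17 CPM in NK1, NK2, NK3 and NK6, at 3.65 in NK5 and at 3.84 in NK4, a coefficient of variation of 86.4%. In the libraries labelled TAAR5-WT it was at 1.54 CPM in NK12 and at 3.32 to 4.90 CPM in the other 5. The log2 fold change of −1.11 (SE 0.41) did not pass (edgeR adjusted p = 0.194). Without NK4 it was −1.47 (adjusted p = 0.0300) and without NK5 −1.46 (adjusted p = 0.0419). Itih3 was also higher in NK4 and NK5 than in the other libraries labelled TAAR5-KO, with 2.51 CPM in NK3, 2.53 in NK6, 6.63 in NK4 and 9.65 in NK5, and 5.20 in NK12 as the lowest of its group (log2 fold change −0.72, SE 0.28, edgeR adjusted p = 0.212). Dio2 and Chrdl1 had another order, both lowest in NK4 and highest in NK6 among the libraries labelled TAAR5-KO and both highest in NK12 among the others.

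**Figure D3:**
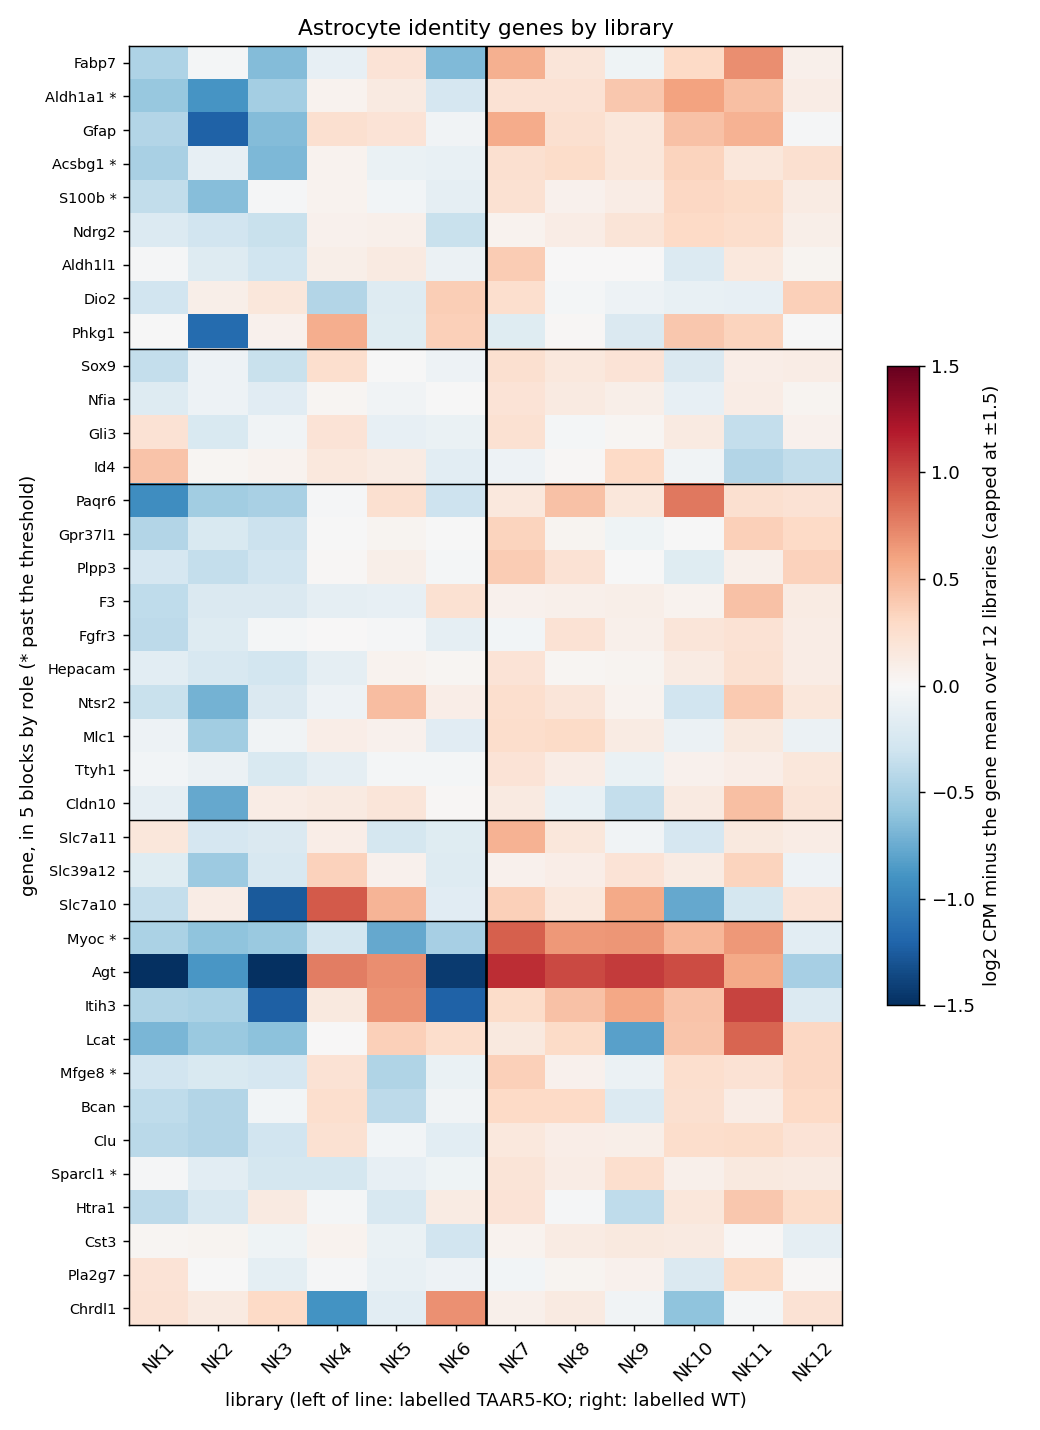
Log2 CPM of each of the 38 genes (rows, by role) minus its mean over the 12 libraries (columns). NK1, NK2 and NK3 are low for most rows, NK7 and NK11 high, and NK4 and NK5 lie between for many genes.

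As a score per library, the mean over the 38 genes of log2 CPM minus each gene's mean, the libraries labelled TAAR5-KO had −0.28, −0.35, −0.31, 0.07, 0.02 and −0.13 in NK1 to NK6. Those labelled TAAR5-WT had 0.25, 0.17, 0.09, 0.12, 0.25 and 0.09 in NK7 to NK12. The ranges did not overlap, but NK4 and NK5 were next to NK9 and NK12, and the spread was wider with the TAAR5-KO label (−0.163 ± 0.177 against 0.163 ± 0.0745, SD, n = 6 each). The summed level of the 38 was 737 to 868 CPM against 930 to 984 CPM. NK2 was the lowest library for 11 genes, NK3 for 9 and NK1 for 7, whereas NK7 and NK11 were each the highest for 11. Ribosomal RNA took 86.6, 87.1 and 88.1% of the counts in NK1, NK2 and NK3, but also 87.4 and 85.6% in NK9 and NK10. It took 64.3% in NK7, 78.2% in NK11 and 65.3% in NK12, and its part in the score was not tested. The coefficient of variation was larger in the libraries labelled TAAR5-KO for 27 of the 38 genes, with medians of 16.6% and 13.3%. The score is a description, since the genes were chosen with results of these data known.

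**Figure D4:**
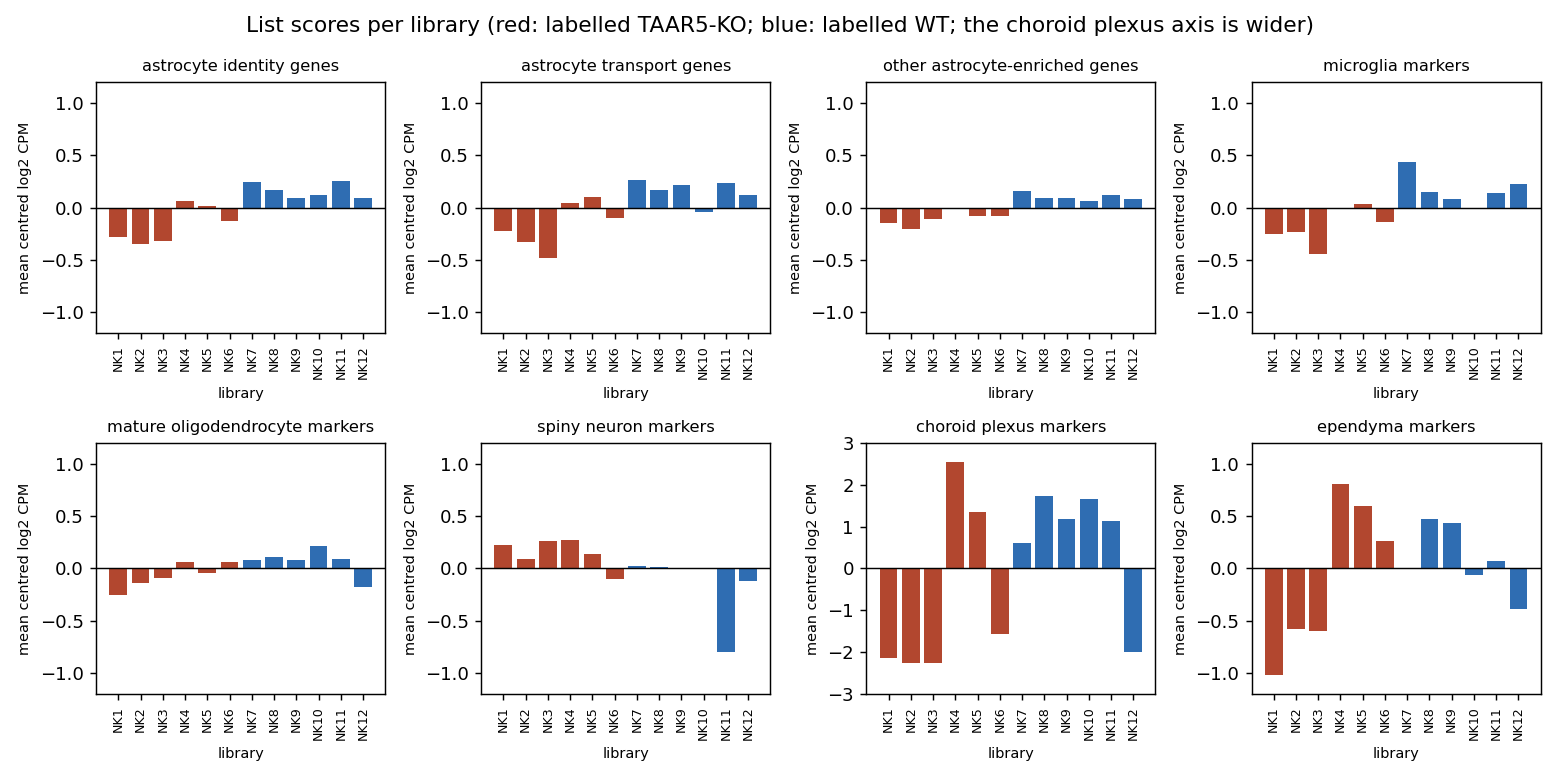
Score of the 38 genes in each library beside scores of 7 other gene lists, in mean centred log2 CPM, with a bar per library (red labelled TAAR5-KO, blue labelled TAAR5-WT) and a wider axis for the choroid plexus. The astrocyte score is −0.35 to 0.07 in the libraries labelled TAAR5-KO and 0.09 to 0.25 in those labelled TAAR5-WT, and the choroid plexus score is low in NK1, NK2, NK3, NK6 and NK12.

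Signs of a neighbouring tissue moved with some of these values. The 10 choroid plexus markers, all tested, summed to 4.54 to 510 CPM with the TAAR5-KO label (a median of 7.44) and to 5.29 to 309 CPM with the TAAR5-WT label (a median of 193), with 9 of 10 lower (2 of 10 under the median of all features with library size as the only scaling), 0 called and none at 0 in every library. Ttr, their most abundant gene, was at 0.468 to 5.29 CPM in NK1, NK2, NK3 and NK6, at 1.38 in NK12 and at 102 to 427 CPM in the other 7 libraries. Among libraries with high Ttr, Myoc had 0.805 CPM in NK4, 0.545 in NK5 and 1.45 to 1.94 CPM in the 5 labelled TAAR5-WT. Among those with low Ttr, Myoc had 0.881 CPM in NK12, labelled TAAR5-WT, and at most 0.689 CPM in NK1, NK2, NK3 and NK6. With the choroid plexus score as a covariate, chosen after the data were seen, 2.21% of all features were called (1.65% without it), and 6 of the 38 were called lower: Myoc (log2 fold change −1.03, edgeR adjusted p = 0.00629), Acsbg1 (−0.38, 0.0226), Aldh1a1 (−0.45, 0.0197), Sparcl1 (−0.32, 0.0459), Mfge8 (−0.37, 0.0976) and Agt (−0.72, 0.0343). S100b was then at −0.29 with an adjusted p of 0.128, and the quasi-likelihood test with this covariate called Myoc, Acsbg1 and Aldh1a1, and 0.705% of all features. Among genes called in neither fit, the difference shrank by over 1.5 times under the covariate for Gfap (from −0.56 to −0.37), Itih3 (−0.72 to −0.44), Slc39a12 (−0.21 to −0.10), Mlc1 (−0.22 to −0.14) and Cst3 (−0.11 to −0.07). It grew by over 1.5 times for Dio2 (−0.09 to −0.24), Phkg1 (0.01 to 0.09) and Slc7a10 (0.01 to 0.11), and Chrdl1 changed sign (0.12 to −0.09). The remaining genes called in neither fit moved by less in either direction.

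Further astrocyte genes, none of them among the 38, were counted under the same test, by which 0.691% of all features were called lower and 51.1% were below 0. Of 15 genes of glutamate, water, potassium and gap junction transport, 15 were lower and 2 were called lower, the connexin gene Gja1 (31.0 ± 5.89 against 41.3 ± 3.27 CPM, log2 fold change −0.41, SE 0.12, edgeR adjusted p = 0.0568) and the sodium pump subunit gene Atp1b2 (48.1 ± 9.33 against 63.7 ± 6.02 CPM, −0.40, SE 0.12, 0.0742), with a median of −0.34. Of 25 further astrocyte-enriched genes, 20 were lower and 2 called lower, the NMDA receptor subunit gene Grin2c (2.35 ± 0.233 against 3.47 ± 0.543 CPM, −0.51, SE 0.14, 0.0293) and Tril (−0.38, SE 0.11, 0.0699), with a median of −0.21. The quasi-likelihood test called 0 and 1 of them, the latter Grin2c.

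Markers of other cells were counted in the same way, against the same 0.691% of all features called lower, 0.957% called higher and 51.1% below 0. Microglia markers were lower for 10 of 10 with 3 called (0 by the quasi-likelihood test) and a median of −0.36, their sum being 31.1 to 44.2 CPM against 44.1 to 54.1 CPM. Oligodendrocyte precursor markers were lower for 8 of 8 (median −0.27, 0 called, 15.6 to 22.7 against 21.2 to 24.3 CPM). Mature oligodendrocyte markers were lower for 8 of 10 (median −0.15, 0 called, 603 to 737 against 638 to 821 CPM). The 12 spiny neuron markers were all on the higher side with 0 called (median 0.29, 449 to 571 against 271 to 485 CPM), and NK11, one of the 2 libraries with the highest astrocyte score, had their lowest score, −0.80. Of the vascular leptomeningeal markers 8 of 10 were tested and 7 were lower, with a median of −0.39 and overlapping scores (−0.81 to 0.48 against −0.41 to 0.71). Endothelium markers were lower for 4 of 10 with a median of 0.04, and 0 were called in either list. Pan-neuronal markers were lower for 8 of 10 with 0 called and a median of −0.11. With library size as the only scaling all 12 spiny neuron markers were under 0 but above the median of all features, and the microglia, precursor and transport genes were all under that median. No list had a marker at 0 in every library. The part of these cell mixtures in the astrocyte values was not tested.

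Of the 38 genes, 27 overlap another annotated gene and 9 overlap a protein-coding one, and the strand setting of the counting is not given in the sources used here. Acsbg1 overlaps Idh3a on the opposite strand (log2 fold change −0.09, edgeR adjusted p = 0.828), and S100b overlaps Dip2a in the same way (−0.08, 0.830). Myocos, opposite Myoc, had 0 to 2 counts in a library.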

How the data were processed

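RNA of mouse striatum was measured in 12 libraries, 6 of each genotype label. Per the labels and the study's methods, the authors removed ribosomal RNA, made directional libraries, trimmed single-end reads with cutadapt 4.1, aligned them to GRCm39 with STAR 2.7.11b and counted them with featureCounts 2.0.6. What the authors deposited are raw read counts for each gene, neither normalized nor pooled. A further 12 columns of counts were not used.

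Features reaching 0.5 CPM (on total counts) in 3 or more libraries were scaled by TMM and fitted in edgeR 4.0.16 (R 4.3.3) with glmFit and glmLRT, calls being made at a Benjamini-Hochberg adjusted p under 0.1 over all 13902 features. The CPM values are on TMM-scaled library sizes, and scores used log2 CPM with a prior count of 2. The TMM factors ran from 0.375 in NK1 to 2.46 in NK7. SEs came from the same fit, and 95% intervals are 1.96 SE. Intervals and p-values rest on the spread between the libraries, which the labels describe as separate animals. The fit moderates the dispersion of each gene toward the trend over all features, so they do not measure the spread of that gene alone.

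Genes and lists were chosen with earlier results of these data known. Described in every library were the genes called, Gfap, Aldh1l1, S100b, Sox9 and Fgfr3, the 3 next by p and the 3 highest per length, and genes outside the 38 only where called. Microglia markers are not named one by one. Alternatives were the quasi-likelihood test, DESeq2 1.42.0, other scalings, filters and thresholds, ribosomal RNA removal or share, robust dispersions, length and GC trends (loess, span 0.5), other score scales and leaving out each library.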

Additional observations from a re-analysis of the deposited data

Results flagged for a closer look

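Of 78 groups of 6 libraries examined gene by gene and for the scores, 3 held a library whose distance from the nearest other, relative to the range of the group, passed Dixon's 95% critical value, a rule by which chance marks about 1 group in 20. For Sox9 the lowest library labelled TAAR5-WT, NK10, had 11.2 CPM against 14.0 in the next one (ratio 0.679). For F3 the highest library labelled TAAR5-KO, NK6, had 5.45 CPM against 4.24 in the next one (0.629), and the highest labelled TAAR5-WT, NK11, had 6.32 CPM against 5.04 (0.852).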

How the results depend on the processing

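With the 6 genes called as reference, in a fit that called 1.65% of all features, the number called (share of all features in parentheses) was 2 by the quasi-likelihood test (0.453%), 0 with library size as the only scaling (0.0504%), and 3 with no filter beyond 1 count (0.213%), with ribosomal RNA features removed (0.834%), with the ribosomal RNA share as covariate (0.705%), with the length trend removed (1.47%), with the GC trend removed (0.705%), at an adjusted p under 0.05, and by the quasi-likelihood test with the choroid plexus score as covariate (0.705%, added after the data were seen). It was 6 with RLE size factors (1.63%), filterByExpr (1.75%) or the CPM filter on TMM library sizes (1.79%), 4 with robust dispersions (1.27%) and 7 in DESeq2 (1.27%), which left 7 of the 38 genes and 7009 of the 13902 features without an adjusted p. Leaving out 1 library gave 3 to 12: 12 without NK4 (2.99%), 10 without NK5 (2.14%), 8 without NK9 (2.37%), and 3 without NK2 (0.820%), NK7 (0.753%), NK10 (1.36%), NK11 (0.616%) or NK12 (1.00%). Myoc, Acsbg1 and Aldh1a1 were called in 12 of these 12 fits, S100b in 5, Sparcl1 in 3 and Mfge8 in 3, and 24 genes in none. None of the 38 was called higher in any fit. The median log2 fold change was −0.70 with library size only (all features −0.49), and −0.28 to −0.22 when 1 library was left out. The astrocyte score difference was −0.33, −0.81 with library size only, −0.98 with each gene divided by its SD, and −0.37 to −0.29 without 1 library. The cause of these moves was not tested. No direction of a called gene reversed. No paired analysis was possible because the count columns carry library numbers and no animal numbers. Genes under 1 CPM rest on few counts, 2 in a library at the lowest.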

Other observations

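Genes that astrocytes raise in injury and inflammation were examined apart from the identity genes. Of 20 such genes, 13 passed the filter on low counts, 9 of these were on the lower side (8 were under the median of all features with library size as the only scaling) and 0 were called by the likelihood ratio or the quasi-likelihood test of edgeR, with a median log2 fold change of −0.12. Their summed level was 16.7 to 25.2 CPM in the libraries labelled TAAR5-KO and 17.9 to 24.7 CPM in those labelled TAAR5-WT, so the ranges overlapped. The score of these genes was highest in NK4 (0.31) and lowest in NK2 (−0.37), both labelled TAAR5-KO.

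Of 12 markers of the ependyma, the ciliated lining of the ventricles, 9 were tested, 5 of them on the higher side (7 above the median of all features with library size only) and 0 called. Their score ran from −1.02 in NK1 to 0.81 in NK4, across the range of the libraries labelled TAAR5-WT (−0.39 to 0.48). Cortical pyramidal neuron markers, tested for 8 of 8, had 0 calls, and their score was −0.88 in NK4, −1.01 in NK9 and 0.82 in NK12.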
